A study of Homo sapiens with 37 samples.

Results

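The retinoblastoma (RB) pathway was examined through 10 genes: the small CTD phosphatases CTDSPL, CTDSP1 and CTDSP2, the pocket proteins RB1, RBL1 and RBL2, and the CDK inhibitors CDKN1A, CDKN1B, CDKN2C and CDKN2D. All 10 were found by symbol among the 32055 genes of the table, and all 10 passed the filter on low counts. The group was chosen by the levels of CTDSPL, known to be higher in KO than in Control libraries, so the difference between KO and Control libraries is given for these genes as a description. How many of them passed the threshold of the fit over all genes is stated once, beside the share of all genes, and nothing is read from it. The samples were 37 bulk SCRB-seq libraries of K562, an established human erythroleukemia cell line, with 26 labelled KO and 11 labelled Control. KO cells had received the px458 plasmid, which carries Cas9 and GFP, with a gRNA against ZBTB7A, a transcription factor that regulates blood cell differentiation, and Control cells had received the plasmid without a gRNA. Lines were grown from single sorted GFP-positive cells, but the labels do not say which libraries share a clone or a gRNA.

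The pocket proteins RB1 (pRB), RBL1 (p107) and RBL2 (p130) bind E2F transcription factors and repress genes needed for DNA replication. Cyclin D and cyclin E kinases phosphorylate the pocket proteins and release E2F. The CDK inhibitors p21 (CDKN1A) and p27 (CDKN1B) act mainly on cyclin E and cyclin A complexes with CDK2, whereas p18 (CDKN2C) and p19 (CDKN2D) bind CDK4 and CDK6. CTDSPL, CTDSP1 and CTDSP2 are phosphatases of the RNA polymerase II C-terminal domain, and CTDSPL is also known to remove phosphate from pRB, opposite to the kinases. K562 cells are known to lack the CDKN2A and CDKN2B locus, and neither gene was found by symbol in the table.

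Each of the 3 phosphatase genes also carries a microRNA of the miR-26 family in an intron, and these sequences are shown because the seed they share can be looked for in the transcripts of the other genes. MIR26A1 lies in intron 5 of 7 of CTDSPL, with the mature miR-26a-5p at chr3:37969413-37969434 on the plus strand. MIR26B lies in intron 4 of 6 of CTDSP1, with the mature miR-26b-5p at chr2:218402657-218402677 on the plus strand. MIR26A2 lies in intron 5 of 7 of CTDSP2, with the mature miR-26a-5p at chr12:57824658-57824679 on the minus strand. Sequences are from RefSeq on GRCh38.p14, 5′ to 3′, with the seed (bases 2 to 8) in capitals.
hsa-miR-26a-5p (CTDSPL and CTDSP2): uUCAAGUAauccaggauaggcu
hsa-miR-26b-5p (CTDSP1): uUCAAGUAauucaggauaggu
All 3 loci share one seed. Counted from the 5′ end, miR-26a and miR-26b differ at C11U and C21U, and miR-26b is 21 bases long against 22.

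The DNA match to this seed, TACTTGA, was searched on the sense strand of the canonical 3′UTR of each of the 10 genes. RB1 held 1 match and the other genes held 0. The match is shown in capitals within its surroundings, at chr13:48480875-48480900 on the plus strand of GRCh38.
RB1 3′UTR: tacccatctagTACTTGAaaaagtaa
Among 2773 3′UTRs of a length like that of RB1, 11.8% held at least 1 match, and among all 19550 canonical 3′UTRs 11.5% did. A match of letters is a description and not a shown target site. The libraries were primed on poly(A) tails and do not measure mature microRNAs.

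E2F motifs were searched on both strands of the RefSeq promoter entries, which run over 300 bases around each start site. The motifs were TTTCCCGC, TTTCGCGC, TTTGCCGC and TTTGGCGC. Entries were found for 9 of the 10 genes, 18 in all, and CTDSPL was the gene without one. The only entry of RB1 starts 172 kb inside the gene as annotated, so the stretch before the annotated start of RB1 was not searched. Motifs were present in 2 entries, 1 of CTDSP1 with 1 motif and that of RBL1 with 2, whereas 3.31% of all 35116 promoter entries held any. The stretch of RBL1 with both motifs is at chr20:37096000-37096029 on the minus strand, 26 and 16 bases before the start site at the first base of each motif, which is in capitals.
RBL1 promoter: gcagatTTTCGCGCgcTTTGGCGCaggtgg

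Total unique molecular identifier (UMI) counts lay between 1070250 and 4270901 per KO library (median 2030965) and between 563235 and 4710809 per Control library (median 3518944). A UMI marks 1 captured cDNA molecule, so a count does not depend on PCR copies, and because SCRB-seq reads 3′ ends it does not depend on transcript length. In all 380 pairs of libraries from the same group the counts differed by more than counting noise (chi-square per degree of freedom at least 1.14), so none was taken for a second deposit of another, which does not show that they come from separate clones or cultures. ZBTB7A ran from 5.27 to 6.19 log2 CPM in Control libraries and from 5.44 to 6.41 in KO libraries, a difference of 0.12 ± 0.09 (SE, adjusted p = 0.331, edgeR). The targeted transcript therefore did not separate the labels, and a 3′ count does not show an edit in the coding sequence. Of 10 erythroid K562 markers, 9 were in the table and HBE1 was not. Summed levels of the 9 were 4146 to 8924 CPM in Control and 3017 to 9590 CPM in KO libraries. Of the 9, 4 were called lower and 1 higher in KO, where 33.8% of all tested genes were called in either direction. None of these 5 was called with the libraries of a set summed, as described below. Of 12 markers of other cells, 7 were in the table and only EPCAM passed the filter, lower in KO by 0.75 ± 0.09 log2 (adjusted p = 1.37e-08). With the libraries of a set summed, EPCAM was at -0.64 ± 0.24 and not called (adjusted p = 0.475, edgeR). The summed level of these 7 was 167 to 287 CPM in Control and 100 to 212 CPM in KO libraries, and its part in the results below was not tested.

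The libraries fell into 7 sets by their likeness over the 500 most variable genes, a choice from which the 10 genes and the list genes below were left out. Set 1 held 6 Control libraries, and sets 3 to 7 held 6, 6, 5, 4 and 4 KO libraries. Set 2 held 5 Control libraries and 1 library labelled KO, with the barcode GGCCAC. Libraries of a set may share a clone, which was not tested, and in that case the p-values below, which take every library as a separate sample, are too small. When the UMIs of each set and group were summed to 1 sample, 6 KO against 2 Control samples gave 0 genes with an adjusted p below 0.05 by edgeR, with 1483 at an unadjusted p below 0.05, and 2 genes by limma-voom. Without the library GGCCAC the same fit gave 77 genes by edgeR and 81 by limma-voom, and none of the list genes below.

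CTDSPL was the gene with the largest difference of the 10. It lies on chromosome 3 from 37861880 to 37984469 (GRCh38, plus strand). Control libraries held 22 to 144 UMIs of CTDSPL with a median of 89, or a lowest, median and highest level of 4.32, 4.79 and 5.34 log2 CPM. KO libraries held 65 to 486 UMIs with a median of 213, or 5.12, 6.69 and 6.98 log2 CPM. In 25 of 26 KO libraries the level was above the highest Control library, and the exception was GGCCAC at 5.12. The highest Control value, 5.34, came from the shallowest library, with 22 UMIs, and the next highest Control library was at 5.03, below GGCCAC. The fitted difference was 1.84 ± 0.13 (log2, SE), or 3.58-fold, and it ranked at place 84 of the 10661 tested genes from the highest. At least as many KO libraries above the whole Control range were found for 94 tested genes, CTDSPL included. With the libraries of a set summed the value was 1.72 ± 0.40, and 1.86 ± 0.21 without GGCCAC, the KO library in which CTDSPL was lowest. With AT-rich barcodes alone (defined below) it was 1.89 ± 0.10.

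The paralogs of CTDSPL did not show a difference of this size, but CTDSPL was chosen for its difference, so nothing is read from this. CTDSP1, on chromosome 2 from 218397136 to 218405941, had a lowest, median and highest level of 6.10, 6.36 and 6.61 log2 CPM in Control and 5.75, 6.29 and 6.68 in KO libraries. Its difference was -0.10 ± 0.08 (log2, SE), with 4 KO libraries above and 6 below the Control range. CTDSP2, on chromosome 12 from 57819927 to 57846729, had levels of 6.16, 6.23 and 6.56 log2 CPM in Control and 6.14, 6.44 and 6.73 in KO libraries. Its difference was 0.17 ± 0.05, and 18 of 26 KO libraries lay within the Control range. In Control libraries both paralogs were thus above CTDSPL, without any overlap, and in KO libraries the median of CTDSPL was above both.

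The pocket protein genes overlapped between the groups. RB1, on chromosome 13 from 48303744 to 48599436, had 4.09, 5.08 and 5.29 log2 CPM in Control and 4.76, 5.12 and 5.38 in KO libraries as lowest, median and highest level. The lowest Control value of RB1 came from 9 UMIs of the shallowest library. The difference of RB1 was 0.02 ± 0.07 (log2, SE), with 23 of 26 KO libraries inside the Control range. RBL1, on chromosome 20 from 36996349 to 37095997, had 4.54, 4.82 and 5.15 log2 CPM in Control and 4.37, 4.66 and 5.20 in KO libraries. Its difference was -0.15 ± 0.07, with 6 KO libraries below and 1 above the Control range. RBL2, on chromosome 16 from 53433977 to 53491648, was the lowest of the pocket proteins, with 7 to 46 UMIs in Control and 6 to 38 in KO libraries. Its levels were 2.47, 3.24 and 3.74 log2 CPM in Control and 2.57, 3.26 and 3.62 in KO libraries, so that all 26 KO libraries lay within the Control range, and its difference was 0.04 ± 0.12. RBL2 and RB1 changed sign under some of the alternatives.

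Among the CDK inhibitors, CDKN1A and CDKN1B were on average higher in KO libraries, and both overlapped with Control. CDKN1A (p21), on chromosome 6 from 36676460 to 36687337, had 4 to 52 UMIs in Control and 10 to 100 in KO libraries. Its lowest, median and highest levels were 2.84, 3.55 and 4.43 log2 CPM in Control and 2.53, 4.14 and 5.32 in KO libraries. KO libraries of CDKN1A lay on both sides of the Control range, with 9 above it and 3 below it. The difference was 0.81 ± 0.29 (log2, SE), or 1.75-fold, and 0.55 ± 0.30 by limma-voom. CDKN1B (p27), on chromosome 12 from 12685498 to 12722369, had 29 to 223 UMIs in Control and 74 to 372 in KO libraries. Its levels were 5.61, 5.70 and 6.10 log2 CPM in Control and 5.70, 6.19 and 6.62 in KO libraries, with 14 KO libraries above the Control range and 0 below. Its difference was 0.43 ± 0.09, or 1.35-fold.

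The INK4 inhibitors differed less. CDKN2C (p18), on chromosome 1 from 50960745 to 50974634, had 5.46, 5.79 and 5.94 log2 CPM in Control and 5.25, 6.05 and 6.57 in KO libraries. Its KO libraries spread wider than the Control libraries, with an SD of 0.42 against 0.14, and 14 lay above and 3 below the Control range. The difference of CDKN2C was 0.29 ± 0.12 (log2, SE). CDKN2D (p19), on chromosome 19 from 10566460 to 10569059, was the least abundant of the 10 genes, with 0 to 19 UMIs in Control and 2 to 16 in KO libraries. Its levels were -0.35, 2.29 and 2.96 log2 CPM in Control and 1.05, 2.07 and 2.96 in KO libraries, and the lowest came from 0 UMIs in the shallowest library. Its difference was -0.09 ± 0.20, so changes of the size of this error, and somewhat larger ones, could go uncalled at this depth.

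**Figure D1:**
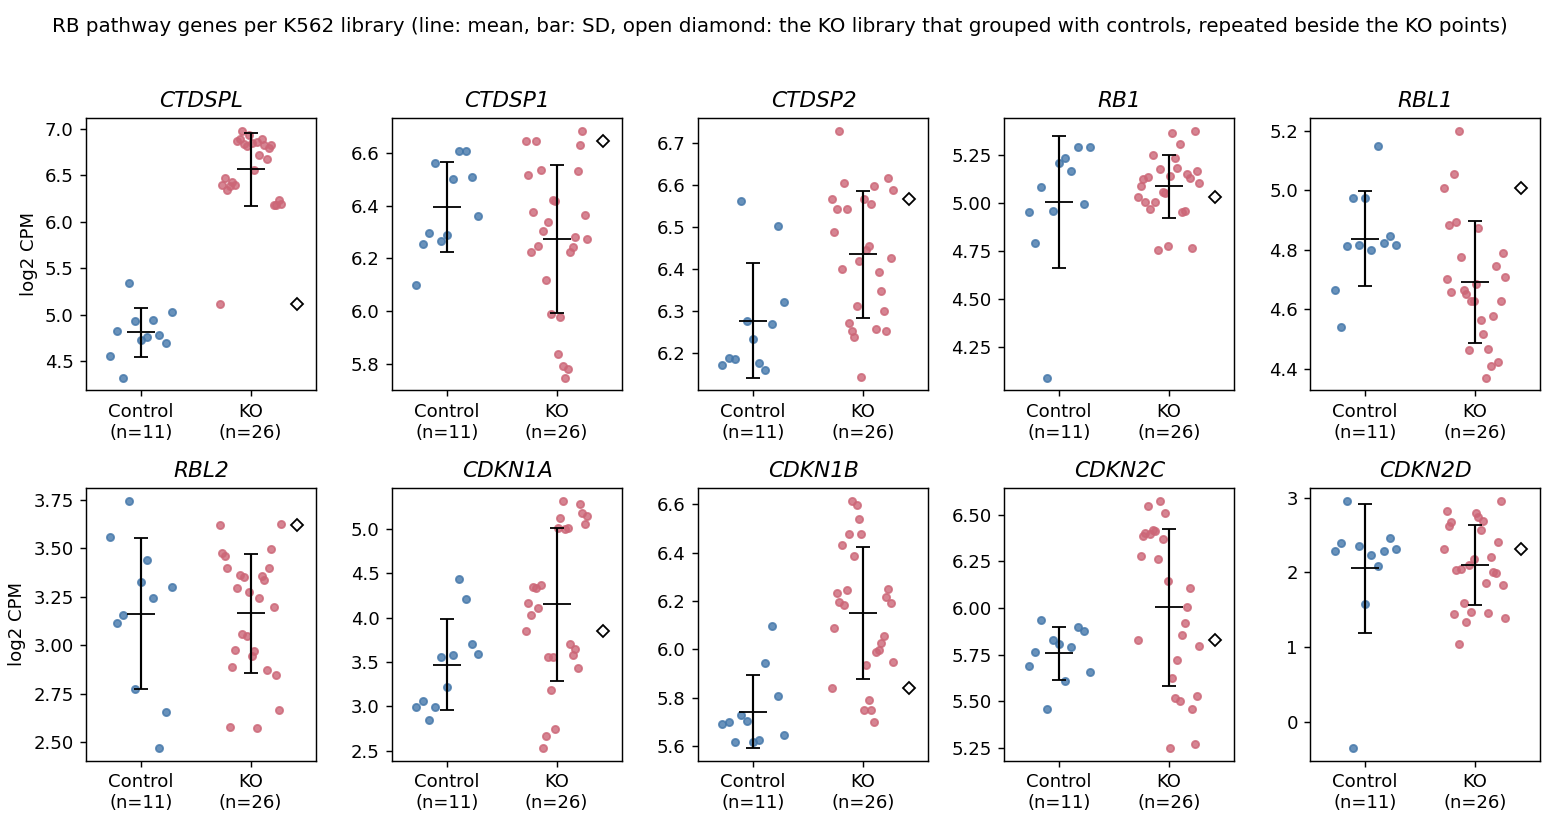
Level of each of the 10 genes (y axis, log2 CPM with a prior count of 2, scale differs by panel) in the 11 Control and 26 KO libraries, 1 point per library, with the mean as a line and the SD as a bar. CTDSPL separates the groups in all but 1 KO library, at 5.12, shown again as an open diamond, and the other 9 genes overlap.

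Over the 10 genes, 4 had an adjusted p below 0.05, all higher in KO (CTDSPL, CTDSP2, CDKN1A and CDKN1B), or 40.0% beside 33.8% of all tested genes, where 17.7% were called higher and 16.2% lower. The median difference was 0.10 (log2) beside -0.0046 over all tested genes. None of the 10 separated the groups without overlap, as 0.281% of all tested genes did. CTDSPL, by which the group was chosen, is one of the 4, and the genes were chosen with this comparison known, so nothing is read from these counts.

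CTDSPL changed its place among the 10 genes. By median log2 CPM, the order in Control libraries was CTDSP1, CTDSP2, CDKN2C, CDKN1B, RB1, RBL1, CTDSPL, CDKN1A, RBL2 and CDKN2D. In KO libraries it was CTDSPL, CTDSP2, CTDSP1, CDKN1B, CDKN2C, RB1, RBL1, CDKN1A, RBL2 and CDKN2D. In Control libraries the ranges of neighbours in this order overlapped, apart from those of CTDSP2 and CDKN2C and of CDKN1B and RB1. In KO libraries the ranges of all neighbours overlapped. Capture can differ between genes, so the order is one of captured molecules.

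The KO libraries were not alike among themselves, and the members differed by set. CTDSPL was lowest in set 7, from 6.18 to 6.23 log2 CPM, followed by set 3 from 6.34 to 6.47. It was higher in set 5 from 6.55 to 6.89, set 6 from 6.68 to 6.83 and set 4 from 6.81 to 6.98. All 5 sets of KO libraries lay above both sets with Control libraries, at 4.32 to 5.34 and 4.70 to 5.03.

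CDKN1A lay at different levels in different sets of KO libraries. Set 5 reached 5.32 and set 7 ran from 5.05 to 5.28 log2 CPM, with every library of both sets above the highest Control library at 4.43. Set 3 ran from 4.03 to 4.37, within the range of the Control libraries of set 2, 3.58 to 4.43. Set 4, from 2.53 to 3.56, lay below the Control libraries of set 2, and set 6, from 3.44 to 3.71, overlapped with the lowest of them. The Control libraries of set 1 ran from 2.84 to 3.55, so the 2 sets of Control libraries did not overlap either.

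The order of the sets was different for the other inhibitors. CDKN1B was highest in set 4, from 6.39 to 6.62 log2 CPM, where CDKN1A was lowest. It was lowest among the KO sets in set 5, from 5.70 to 5.94, within the Control range. CDKN2C was high in set 3, from 6.28 to 6.55, and set 4, from 6.14 to 6.57. In set 5, from 5.25 to 5.72, and set 7, from 5.27 to 5.80, it lay within or below the range of the Control libraries, which ran from 5.46 to 5.94. Sets 5 and 7 were thus high in CDKN1A and low in CDKN2C, and set 4 the reverse. CTDSP1 was also lowest in set 5, from 5.75 to 5.98, against 6.10 to 6.61 in Control libraries. RB1 and RBL2 ranges of all sets overlapped with the Control range. The sets were made from these data, so no test was run between them.

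**Figure D2:**
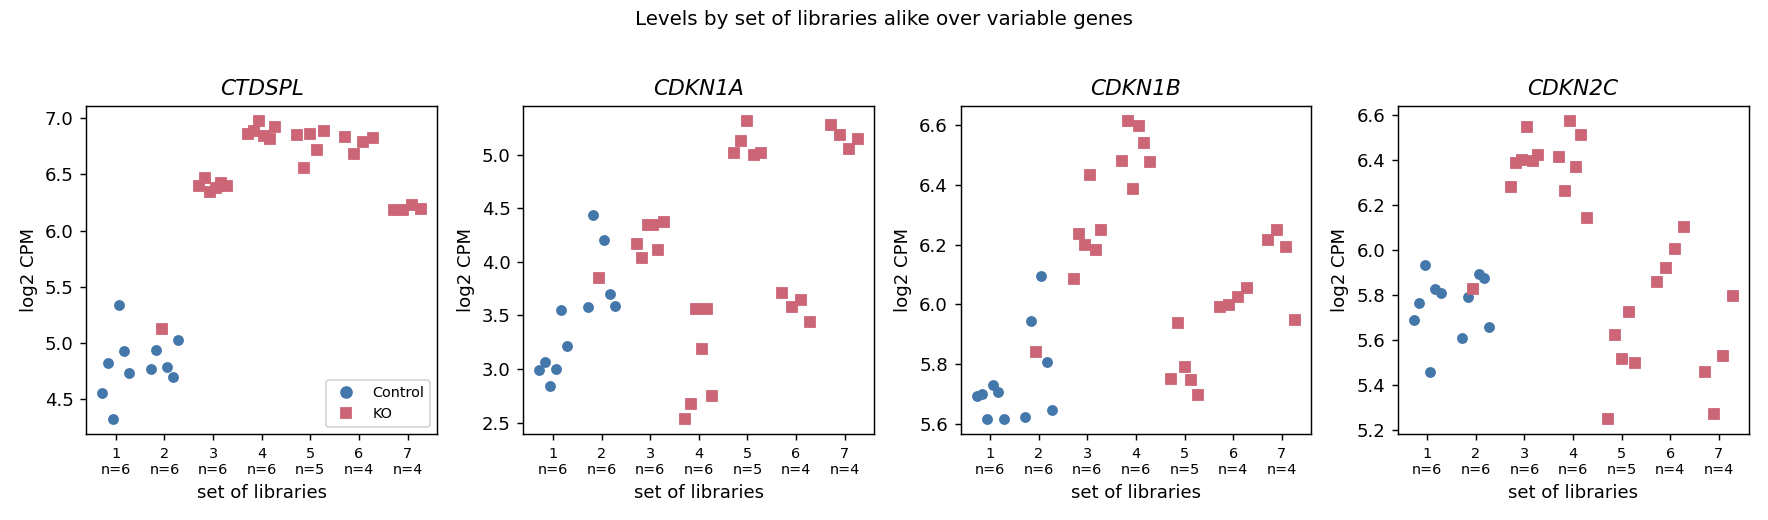
Level of 4 genes (y axis, log2 CPM) in each library, by set of libraries alike over variable genes (x axis, with the number of libraries), with circles for Control and squares for KO. CTDSPL is above 6 log2 CPM in all of sets 3 to 7, whereas CDKN1A is above 5 only in sets 5 and 7 and CDKN2C is above 6.1 in all libraries of sets 3 and 4.

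The library GGCCAC, labelled KO, was near the Control libraries for most of the 10 genes. It held 5.84 log2 CPM of CDKN1B, 5.83 of CDKN2C and 3.85 of CDKN1A, each inside the Control range. For CTDSP1 (6.65) and CTDSP2 (6.57) it lay slightly above the highest Control libraries, at 6.61 and 6.56. The barcodes of the libraries are uneven in base composition between the groups, AT-rich (at most 2 G or C of 6) in 8 of 11 Control and 12 of 26 KO libraries. Within KO, edgeR called 0 of 9987 genes (0%) between 12 libraries with GC-rich and 12 with AT-rich barcodes, with 1157 genes (11.6%) at an unadjusted p below 0.05. Barcode class was uneven over the sets, with 5 AT-rich and 1 GC-rich library in set 3, and 0 and 3 in set 7. Barcode and set are thus partly mixed in this comparison. Among the members tested in it, which left out CDKN2D, the largest difference was that of CDKN1A. It was 0.50 ± 0.34 (log2, SE), not called (adjusted p = 0.572).

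The question of whether the rest of the pathway differed between KO and Control was addressed with 8 lists of genes around the 10. Of 82 list genes tested, 27 (32.9%) had an adjusted p below 0.05, beside 33.8% of all tested genes. Of the 27, 12 were higher and 15 lower in KO, where 17.7% of all tested genes were called higher and 16.2% lower. The counts of single lists given below are small and stand beside these same shares. With an absolute log2 fold change above 0.5, 3 were called, among them CCND3 and CDKN1C, whereas 10.2% of all tested genes were. All 27 kept their direction under every other tool, scaling, filter and set of samples in which they could be fitted over single libraries, up to 9 per gene, and 12 were called in each of these. None was called when libraries of a set were summed.

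Of the kinases that act on the pocket proteins and their activators, 4 of 18 rose and 3 fell, with a median of -0.03 (log2). CCND3, cyclin D3, rose by 1.24 ± 0.15 (SE, adjusted p = 3.63e-08), from a mean of 7.58 ± 0.44 (SD, n = 11) to 8.84 ± 0.37 log2 CPM (SD, n = 26, edgeR). It exceeded every Control library in 25 of 26 KO libraries, again all but GGCCAC, and 94 tested genes had at least as many above. The Control libraries of CCND3 also split by set, from 7.05 to 7.44 in set 1 and from 7.91 to 8.18 in set 2. KO sets 3 to 7 ran from 8.41 to 9.41. The other D cyclins were not called, with CCND1 at -0.41 ± 0.38 (adjusted p = 0.434) and CCND2 at -0.19 ± 0.21 (adjusted p = 0.503). CCND2 had 6 KO libraries below and 3 above the Control range. In set 3, where CCND3 was highest, CCND2 ran from 5.041 to 5.755, against 6.735 to 7.579 in Control libraries. CDK2, the kinase bound by p21 and p27, rose by 0.49 ± 0.06 (adjusted p = 6.85e-09), and all 26 KO libraries, GGCCAC included, exceeded every Control library. Such a lack of overlap, in either direction, held for 0.281% of all tested genes. With libraries of a set summed, CCND3 was at 1.14 ± 0.36 (adjusted p = 0.435) and CDK2 at 0.50 ± 0.11 (adjusted p = 0.403). CCNH, the cyclin of the CDK-activating kinase, fell by 0.37 ± 0.08 (adjusted p = 0.00019), and CCNB1, the mitotic cyclin B1, fell by 0.24 ± 0.06 (adjusted p = 0.00376) but was not called with AT-rich barcodes alone. CDK4 and CDK6, the partners of cyclin D3 and targets of p18 and p19, differed by 0.03 ± 0.10 and -0.03 ± 0.12, with adjusted p-values of 0.869 and 0.884. For CDK6, 4 KO libraries lay above and 9 below the Control range of 7.53 to 8.26 log2 CPM. Set 3 ran from 7.24 to 7.38 and set 4 from 8.12 to 8.33.

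The other inhibitors named CDKN were few. CDKN1C (p57), a relative of p21 and p27, rose by 1.29 ± 0.24 (log2, SE, adjusted p = 5.17e-05, edgeR) at 2 to 38 UMIs per library, and 20 of 26 KO libraries exceeded every Control library. The share of all genes with as many above was not counted. With libraries of a set summed the value of CDKN1C was 1.29 ± 0.42 (adjusted p = 0.433). CDKN3, a phosphatase of CDK2, fell by 0.23 ± 0.07 (adjusted p = 0.00513), and CDKN2AIP, which binds the CDKN2A product p14ARF and is no CDK inhibitor itself, fell by 0.39 ± 0.10 (adjusted p = 0.00298). Of the genes for turnover and transcription of p21 and p27, 1 of 10 rose and 2 fell. They were FOXO1, a factor that drives CDKN1B (0.40 ± 0.16, adjusted p = 0.0434), CKS2 (-0.37 ± 0.10, adjusted p = 0.00563) and CUL1, the scaffold of the SCF ubiquitin ligase (-0.21 ± 0.05, adjusted p = 0.00113). FOXO1 was called in only 5 of 8 alternatives, not by limma-voom, without the filter on low counts or with AT-rich barcodes alone, and the count of higher genes in this list ran from 0 to 2 when single libraries were left out, changing in 18 of 37 fits. CKS2 and CUL1 were called in 8 of 9, with CUL1 at -0.11 at the least.

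**Figure D3:**
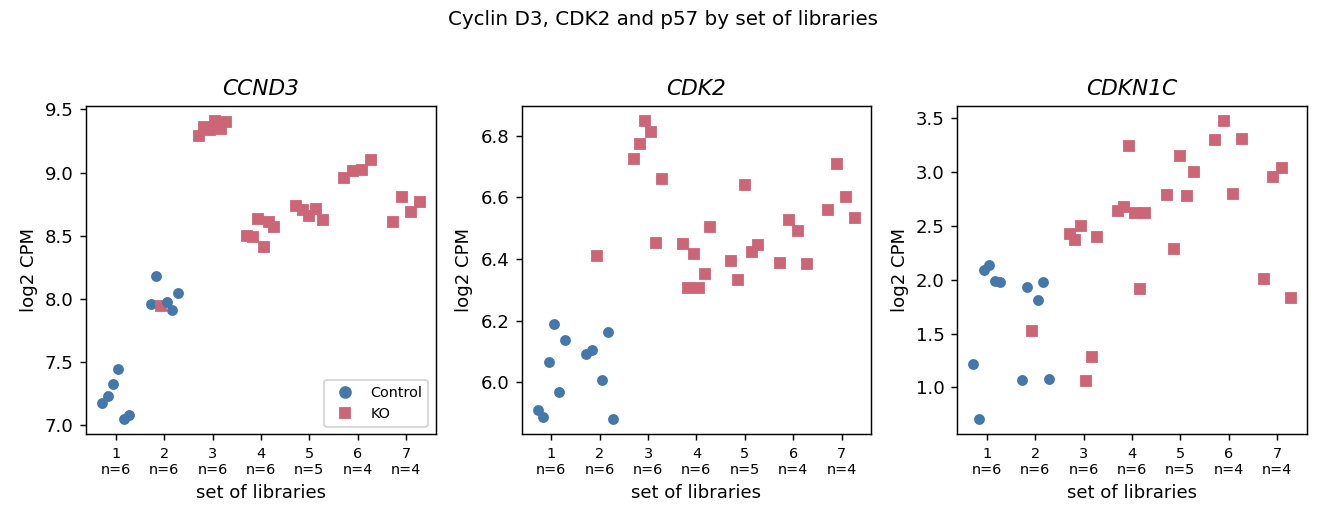
Level of CCND3 (cyclin D3), CDK2 and CDKN1C (p57) in each library (y axis, log2 CPM) by set of libraries (x axis, with the number of libraries), with circles for Control and squares for KO. CDK2 is above every Control library in all 26 KO libraries, and CCND3 in 25, with the KO library of set 2 among the Control libraries.

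Downstream of the pocket proteins, the E2F target genes of S phase showed both directions, with 4 of 16 higher, 2 lower and a median of 0.09 (log2). MCM4, a subunit of the replicative helicase, rose by 0.28 ± 0.06 (SE, adjusted p = 0.000289, edgeR). EZH2, the Polycomb methyltransferase, fell by 0.32 ± 0.08 (adjusted p = 0.00109) and POLA1, the catalytic subunit of DNA polymerase alpha, by 0.27 ± 0.08 (adjusted p = 0.00635). For EZH2, Control libraries held 7.08 to 7.39 log2 CPM in set 1 and 7.52 to 7.84 in set 2. KO libraries of set 3 reached 7.25, so set 1 overlapped with them. For POLA1, Control libraries held 4.95 to 5.33 in set 1 and 4.57 to 4.885 in set 2, and set 3 ran from 4.295 to 5.163. With libraries of a set summed, EZH2 was at -0.23 ± 0.21, POLA1 at -0.24 ± 0.13 and MCM4 at 0.25 ± 0.13, none called.

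Of the E2F and DP factors, 1 of 10 rose and 2 fell. E2F8, a repressor of E2F targets, rose by 0.32 ± 0.11 (log2, SE, adjusted p = 0.0188, edgeR), and E2F3 and TFDP1 fell by 0.21 ± 0.06 (adjusted p = 0.00256) and 0.23 ± 0.05 (adjusted p = 0.000595). Of the chromatin partners of pRB, 1 of 10 rose and 4 fell, among them the SWI/SNF ATPase genes SMARCA4 (-0.31 ± 0.07, adjusted p = 0.00109) and SMARCA2 (-0.35 ± 0.11, adjusted p = 0.00948), and ARID4B rose by 0.22 ± 0.07 (adjusted p = 0.0191). SUV39H1, a histone methyltransferase that binds pRB, fell by 0.24 ± 0.09 (adjusted p = 0.0393), but was called in only 5 of 9 alternatives, with values from -0.30 to -0.07. SMARCA2 and ARID4B were each called in 7 of 9, and E2F3, E2F8 and TFDP1 in 8 of 9, with E2F8 reaching 0.51 and SMARCA2 -0.21.

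No member passed the test in the remaining lists. Of the list of the MuvB core, which joins p107 and p130 in the DREAM complex, and its partners, 0 of 6 were called. The median was -0.06 (log2). LIN37 of this list was not in the table, and FOXM1 did not pass the filter. Of the other RB and C-terminal domain phosphatases, 0 of 9 were called, with a median of -0.00087, and their differences ran from -0.06 ± 0.04 for PPP1CB to 0.16 ± 0.08 for PPP1CA (SE). CTDSPL2, a more distant relative of CTDSPL, differed by 0.04 ± 0.06 (adjusted p = 0.641, edgeR). PPP2CA, also of this list, was not in the table, and CTDNEP1 did not pass the filter on low counts. No tested phosphatase of this list came near the difference of CTDSPL. As CTDSPL was chosen for that difference, nothing is read from this.

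**Figure D4:**
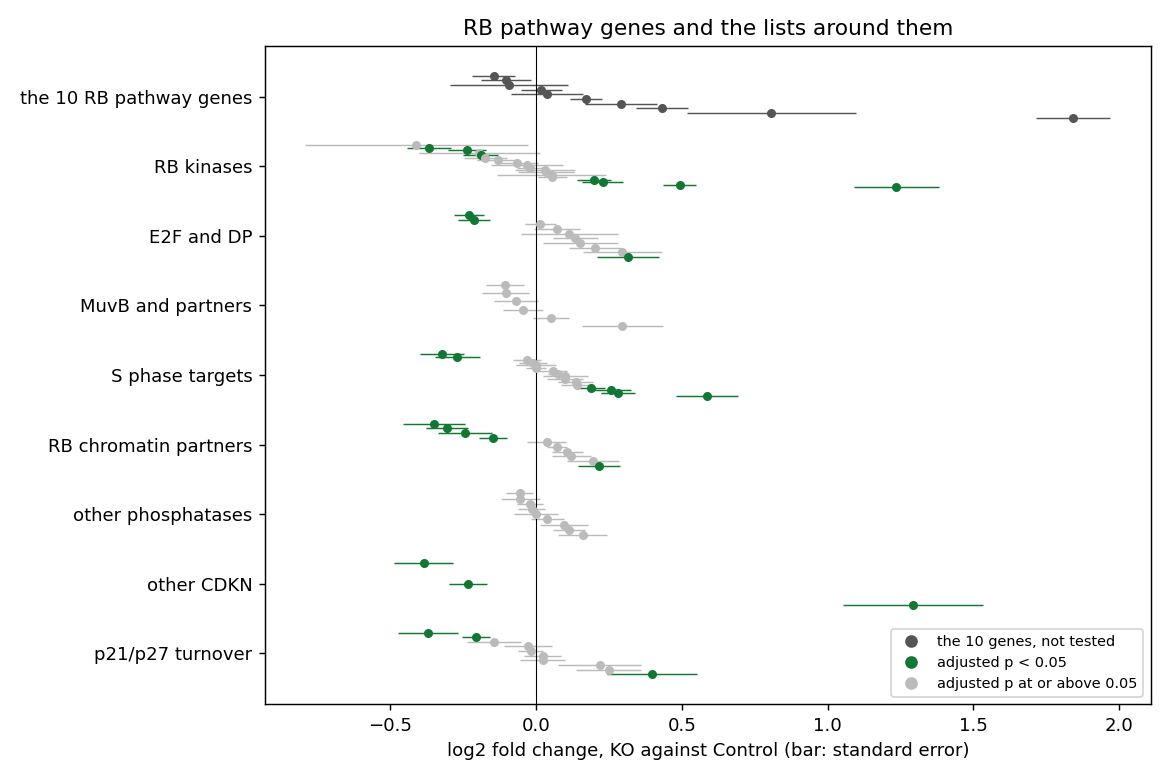
Log2 fold change of KO against Control with its standard error (x axis) for the 10 genes and for each gene of the 8 lists (y axis). List genes are in green where the adjusted p was below 0.05 and in light grey elsewhere. The 10 genes are in dark grey whatever their adjusted p. The legend calls them not tested because their difference is given as a description. CTDSPL at 1.84, CDKN1C at 1.29 and CCND3 at 1.24 lie farthest to the right, and most other genes lie between -0.5 and 0.5.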

How the data were processed

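RNA of 37 K562 libraries was sequenced by bulk SCRB-seq. The authors mapped reads with STAR (2.6.0a per the submitters' processing notes) and used zUMIs with the Ensembl GRCh38.84 annotation, and deposited raw UMI counts by gene. The version of zUMIs is not given in the sources used here. Symbols and positions came from GENCODE on GRCh38, a later annotation than the one counted, and paired 31323 of 32055 identifiers. Barcodes in the column names were matched to the labels, which give only barcode and group. They do not say whether libraries are separate cultures, so p-values measure the spread between these libraries, which may be partly technical.

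Counts were analysed with edgeR 4.0.16 in R 4.3.3 (default filter, TMM, robust quasi-likelihood test with group only, Benjamini-Hochberg over 10661 genes). A call required an adjusted p below 0.05, and where stated also an absolute log2 fold change over 0.5, which are the study's thresholds. The SE is the absolute log2 fold change over the square root of F. Levels are log2 CPM with a prior count of 2. limma 3.58.1 and DESeq2 1.42.0 were alternatives, and the scripts were tested on simulated counts. Libraries of a group were compared by chi-square over genes with a summed count of 10 or more.

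The 10 genes and all lists were chosen with earlier results of these data known. The text names the 10 genes, ZBTB7A and at most 4 called genes per list by size. One gene that this rule names is not reported here. GGCCAC, CCND1, CCND2, CDK4, CDK6, CTDSPL2, PPP1CA, PPP1CB and EPCAM were named after their values were seen. The sets were made by average linkage on 1 minus Pearson's r over the 500 most variable genes with a mean above 5 log2 CPM, cut at 0.05. Several cuts were looked at before this one was kept (the highest join within a set was at 0.041 and the lowest between sets at 0.095). The sets, the summed fits, the seed and motif searches and the printed RBL1 stretch were chosen after seeing the data. Correlations of CTDSPL with the other 9 genes, and the genes most like it, were computed over the 26 KO libraries but are not given, because these libraries fall into separate sets.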

Additional observations from a re-analysis of the deposited data

How the results depend on the processing

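Since the 10 genes were chosen with this comparison known, the sides of the threshold given for them are a description and support nothing. Summing the libraries of a set, chosen after seeing the data, gave 0 called genes overall and 0 list genes, with CTDSPL at 1.72, CTDSP2 at 0.21, CDKN1A at 0.85 and CDKN1B at 0.39 not called and RB1 at -0.0095. The same without GGCCAC gave 77 genes (76 with an absolute log2 fold change above 0.5) and 0 list genes, with CTDSP2 at 0.19, CDKN1A at 0.91 and CDKN1B at 0.44 not called and RB1 at -0.00048. These fits have 8 or 7 samples, by construction. CTDSP2 lost its call with no filter on low counts (0.16), with AT-rich barcodes alone (0.16) and thinned to the smallest total (0.13). CDKN1A lost it with limma-voom (0.55), no filter (0.79), barcode class as a covariate (0.71) and AT-rich barcodes alone (0.57). CDKN2C gained one with DESeq2 (0.30), library size alone (0.32), the covariate (0.36) and AT-rich barcodes alone (0.40). RBL2 was at -0.016 with AT-rich barcodes alone. Beside 1085 genes with an absolute log2 fold change above 0.5, no filter gave 1720, a mean of at least 10 CPM 672 and thinning 595, with 1586 beside 3606 by adjusted p alone. Beside 27 called list genes (12 higher, 15 lower), thinning gave 14 (6 and 8), library size alone called 21 higher and AT-rich barcodes alone 9 lower. The cause of these moves was not tested, apart from fewer or more genes tested, fewer samples and lower depth by construction. Library size alone moved the median of all genes to 0.03.

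Leaving out each library in turn gave 1.81 to 1.88 for CTDSPL, -0.13 to -0.07 for CTDSP1, 0.16 to 0.20 for CTDSP2, -0.016 to 0.049 for RB1, -0.17 to -0.11 for RBL1, -0.020 to 0.096 for RBL2, 0.75 to 0.93 for CDKN1A, 0.41 to 0.48 for CDKN1B, 0.27 to 0.32 for CDKN2C and -0.17 to -0.01 for CDKN2D. RB1 turned negative without Control replicate 2 (-0.0062) or 7 (-0.016), the shallowest, and RBL2 without Control replicate 6 (-0.020) or 8 (-0.0059). CDKN1A lost its call without Control replicate 1 (0.75), 2 (0.76) or 11 (0.77), and CDKN2C gained one without KO replicate 7, 8, 9, 11, 12, 19 or 23 (0.31 to 0.32). Genes called ranged from 1044 to 1126, by adjusted p alone from 3245 to 3726, and list genes from 25 to 30, with 11 to 15 higher and 14 to 16 lower. Counts of single lists moved by over 1.5 times in 27 of 592 values from these fits. They did so in 27 of 144 values under the other alternatives over single libraries, and in 12 of 16 with the libraries of a set summed. Prior counts of 0.5 and 5 moved no difference of mean log2 CPM of the 10 genes by more than the SD between Control libraries. Replicate numbers are not in the labels and were given here within each group in the alphabetical order of the barcodes. No paired analysis was run, because the labels give no pairing of KO with Control libraries. RBL2, CDKN2D and CDKN1C, at 46 UMIs or fewer per library, are limited by depth.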
